A study of Mus musculus with 18 samples.

Results

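The EGR and NR4A genes are 2 families of early transcription factors, and their transcripts were followed in the left ventricle of mice through the first hours and days of acute myocardial infarction (AMI). The members were taken by symbol, as Egr1, Egr2, Egr3 and Egr4 for the EGR family and Nr4a1, Nr4a2 and Nr4a3 for the NR4A family. They are 7 of the 24419 gene symbols in the expression table. Of these 7, 6 were tested, having an FPKM of 1 or more in 1 or more mice, and Egr4 did not.

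The EGR proteins bind a GC-rich DNA element through zinc fingers, and they are immediate early factors, made from genes that are transcribed within minutes of a stimulus without the need for new protein. Their activity is held back by the corepressors Nab1 and Nab2, and in the heart and its vessels they are known to respond to stretch, low oxygen and growth factors. The NR4A proteins are orphan nuclear receptors, which have the fold of hormone receptors but act without a known classical hormone, so that their activity depends largely on how much of them is made. In muscle they are known as regulators of glucose and lipid use, and in macrophages as regulators of inflammation.

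The study followed male C57BL/6 mice of 8 weeks of age, 18 in all, with 3 in each of 6 groups. The sham group, named control in the labels, was operated on without AMI, and the other groups had the proximal left anterior descending coronary artery ligated and were sampled 10 min, 1 h, 6 h, 24 h or 72 h later. Tissue of the infarcted left ventricle was taken, and poly(A) RNA was sequenced from each mouse. All mice were under pentobarbital for the operation, and a sham group for each time is not among the 6 groups, so that time since the operation and time since ligation cannot be told apart. Expression was read as FPKM, a count of fragments scaled by transcript length and by the mapped fragments of the library, which can be compared between genes since it is per length. The FPKM of a mouse summed to between 542418 and 600467, and depth against the first sham mouse, estimated from the lowest values, ran from 0.813 to 1.319. Changes are differences of mean log2(FPKM + 1), on which weakly expressed genes appear to change less than by the ratio of FPKM, and SE is the standard error of limma. A gene is called where the two-sided moderated test of limma had a Benjamini-Hochberg adjusted p under 0.05 over all genes tested. As the tissue was sequenced in bulk, fewer cells of a type and less RNA per cell cannot be told apart.

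The promoter windows of members are shown because the motifs in them are known sites of early gene induction. RefSeq windows on GRCm38.p6, from 250 bases before to 50 after a start site, were at hand for 5 of the 7 members. Each is written in the direction of transcription, in lower case, with the motif matches in capitals. The window of Nr4a1 is chr15:101266596-101266895 on the plus strand, that of Nr4a2 is chr2:57123954-57124253 on the minus strand, and that of Nr4a3 is chr4:48045055-48045354 on the plus strand. Egr2 has 5 windows, 3 of which overlap around the same matches, and the one shown is chr10:67537619-67537918 on the plus strand. The window of Egr4 is chr6:85513540-85513839 on the minus strand.
Nr4a1: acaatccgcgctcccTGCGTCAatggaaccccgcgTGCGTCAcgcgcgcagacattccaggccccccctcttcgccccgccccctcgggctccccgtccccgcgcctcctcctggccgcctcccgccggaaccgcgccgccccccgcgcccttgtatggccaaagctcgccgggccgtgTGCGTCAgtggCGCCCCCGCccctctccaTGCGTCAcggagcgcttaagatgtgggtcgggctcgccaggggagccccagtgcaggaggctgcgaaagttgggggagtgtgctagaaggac
Nr4a2: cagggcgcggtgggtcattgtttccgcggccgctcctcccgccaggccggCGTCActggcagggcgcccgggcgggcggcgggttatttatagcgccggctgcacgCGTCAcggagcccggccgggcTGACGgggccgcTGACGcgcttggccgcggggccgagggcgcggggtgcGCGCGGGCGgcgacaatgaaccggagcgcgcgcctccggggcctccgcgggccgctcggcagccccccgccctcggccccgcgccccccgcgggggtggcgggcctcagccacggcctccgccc
Nr4a3: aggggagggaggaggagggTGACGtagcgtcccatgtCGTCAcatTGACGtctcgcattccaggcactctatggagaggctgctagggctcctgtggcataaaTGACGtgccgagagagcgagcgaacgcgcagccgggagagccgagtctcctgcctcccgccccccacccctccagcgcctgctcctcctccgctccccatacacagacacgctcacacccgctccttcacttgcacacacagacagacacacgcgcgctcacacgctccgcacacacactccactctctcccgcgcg
Egr2: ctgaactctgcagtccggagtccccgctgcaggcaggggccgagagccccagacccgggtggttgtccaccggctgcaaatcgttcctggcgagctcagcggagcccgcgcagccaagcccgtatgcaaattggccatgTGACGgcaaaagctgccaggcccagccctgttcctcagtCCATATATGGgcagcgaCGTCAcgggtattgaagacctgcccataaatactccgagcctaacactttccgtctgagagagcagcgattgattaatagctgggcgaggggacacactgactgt
Egr4: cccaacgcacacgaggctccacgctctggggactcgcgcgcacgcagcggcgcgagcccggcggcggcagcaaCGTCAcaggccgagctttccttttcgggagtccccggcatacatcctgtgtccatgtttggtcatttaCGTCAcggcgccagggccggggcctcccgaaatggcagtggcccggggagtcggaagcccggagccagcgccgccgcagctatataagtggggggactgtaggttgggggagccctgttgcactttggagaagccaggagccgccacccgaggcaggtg

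All 3 NR4A windows held 4 matches of TGACG, the core of the cAMP response element (CRE) to which CREB binds. This core was present at least 1 time in 20.8% of all 32851 RefSeq windows of the same length, which belong to 27025 genes. All shares given here are of windows with at least 1 match, and the share of windows with 2 or 4 was not counted. The windows of Egr2 and Egr4 held 2 CRE cores each, and none of the 5 windows held the whole element TGACGTCA, which 1.79% of all windows held. In Nr4a1 each of the 4 CRE cores lay within TGCGTCA, a sequence that was chosen after the Nr4a1 window had been seen and that stood in 2.12% of all windows. The last letters of TGCGTCA are those of the CRE core on the opposite strand, so the counts of these motifs overlap. A CArG box, the site of serum response factor, was found in the Egr2 window shown, in the 2 windows that overlap it and in 1 window further upstream, against 1.63% of all windows. The EGR site GCGNGGGCG had 1 match in Nr4a1 and 1 in Nr4a2, against 5.55% of all windows. The NR4A monomer site AAAGGTCA had no match in these windows and was in 1.51% of all windows. Both strands were searched for each motif, and a match describes the letters of the window and no more.

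**Figure D1:**
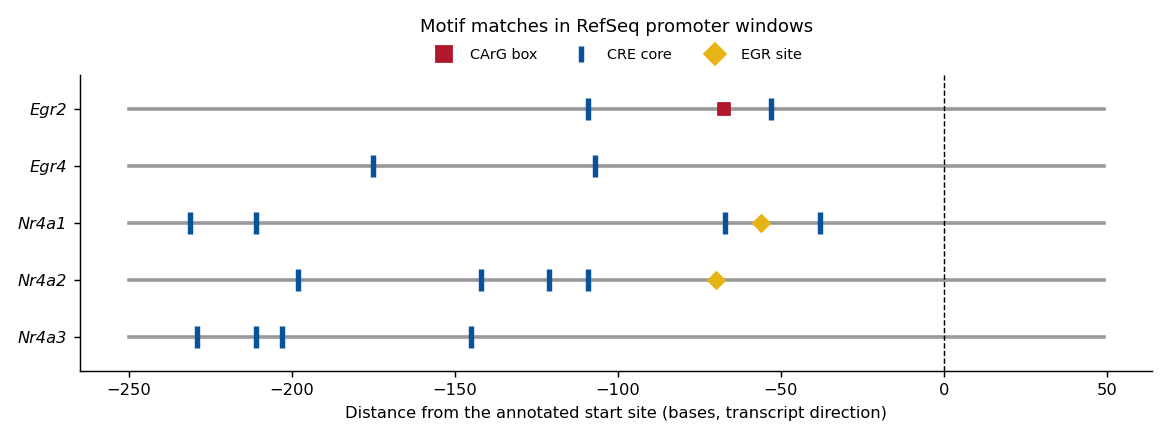
Motif matches along the RefSeq promoter windows of 5 members, with the distance in bases from the annotated start site on the x axis and 1 row for each gene. Blue bars are cores of the cAMP response element, the red square is a CArG box and yellow diamonds are EGR sites. The 3 NR4A windows carry 4 CRE cores each, and the CArG box of Egr2 lies between its 2 CRE cores.

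The number of members called higher than sham rose from 10 min to 1 h and was the same at each later time. At 10 min 1 of the 6 tested members was called higher than sham, Egr1, where 0.248% of the 13297 genes tested were called higher. At 1 h it was 5 of 6, all but Nr4a2, where 0.669% of 13300 genes were called higher. At 6 h and 24 h it was again these 5 of 6, at a time when 11.6% and 26.2% of all genes tested were called higher. At 72 h 5 of 6 were called higher, all but Nr4a3, and by then 53.1% of all genes tested were called higher, and the count of members at that time has to be read against this share. No member was called lower than sham at any time by limma, and none had an unadjusted p under 0.05 in that direction. Without any 1 of the sham mice, or without the third 10-min mouse, the count at 10 min was 0 of 6, and without the first or second sham mouse the count at 24 h was 3 of 6. Over all 6 groups together, the moderated F test of limma called 6 of 6 tested members, where 85.7% of 13333 genes were called. Without overlap of the mice, 3 of 6 tested members lay above sham at 10 min, Egr1, Egr2 and Nr4a1, and 6 of 6 at 1 h. Of all genes tested, 12.2% lay above sham without overlap at 10 min and 7.41% at 1 h.

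**Figure D2:**
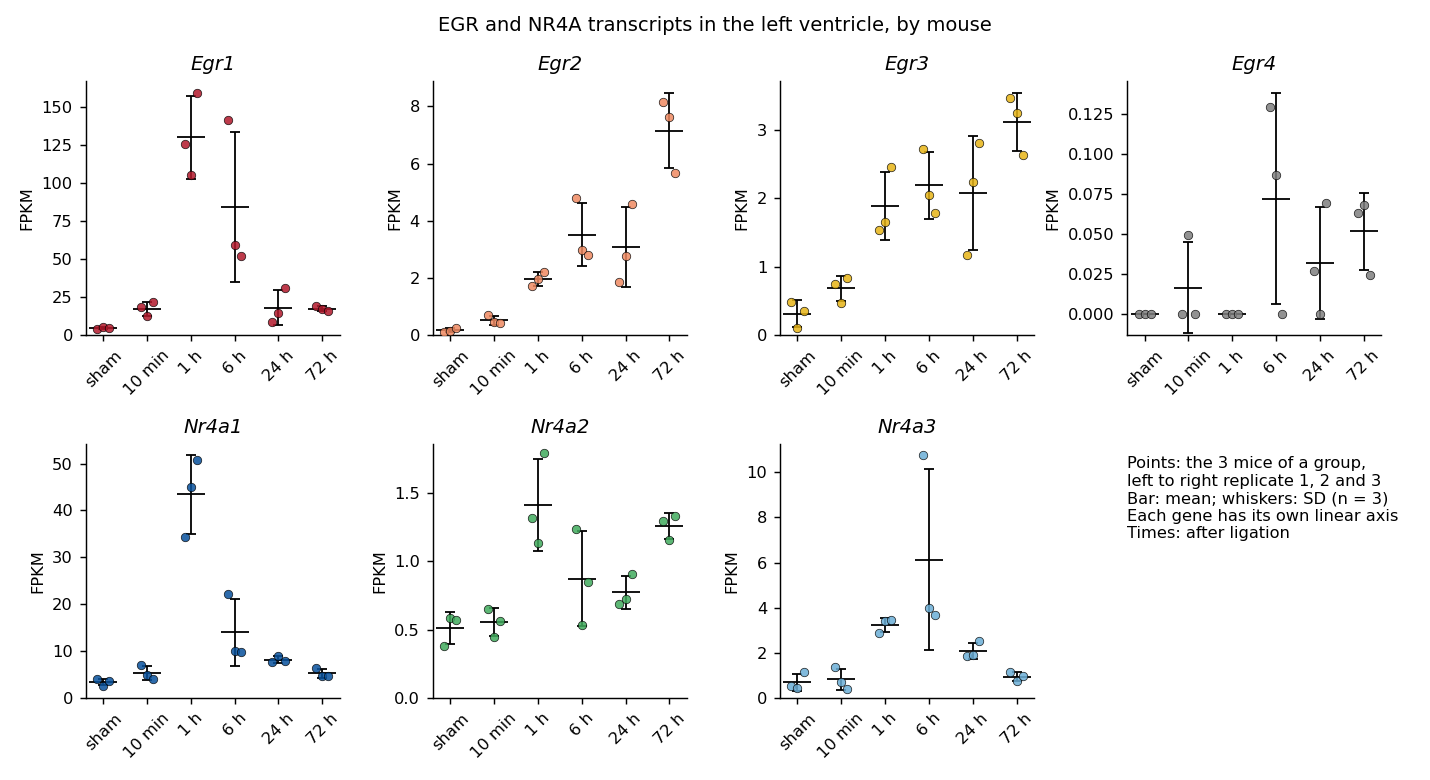
FPKM of each member in every mouse, with the group on the x axis and FPKM on a linear y axis of its own for each gene. Points are the 3 mice of a group, from replicate 1 on the left to replicate 3, and bars and whiskers are the mean and SD. Egr1 and Nr4a1 peak at 1 h, Nr4a3 at 6 h, with 1 mouse far above the other two, and Egr2 and Egr3 are highest at 72 h.

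Egr1, the best known EGR factor and an activator of genes for growth factors and matrix turnover, was the one member called at 10 min and reached the highest level. Its FPKM in mice 1, 2 and 3 was 4.12, 5.43 and 5.03 in sham and 18.2, 12.4 and 21.6 at 10 min. It was 125.4, 105.3 and 159.1 at 1 h and 141, 59.3 and 52.1 at 6 h. Every mouse at 10 min and at 1 h lay above every sham mouse, and at 6 h mouse 1 was far above the other two. At 24 h the values were 8.42, 14.8 and 30.7, and at 72 h they were 19.0, 17.1 and 15.9. The late mice thus lay above all sham mice, with the 24 h mice spread widely and the 72 h mice close together.

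At 10 min Egr1 was 3.58-fold above sham by the ratio of mean FPKM, with a log2 fold change of 1.63 (SE 0.19, adjusted p = 0.0357, limma). This call was lost without any 1 of the sham mice, with adjusted p of 0.126, 0.0888 and 0.119 without mice 1, 2 and 3, and without the third 10-min mouse, with 0.0827. At 1 h Egr1 was 26.7-fold above sham, with a log2 fold change of 4.47 (SE 0.15, adjusted p = 1.01e-05, limma), which was the rank 3 rise among 13300 genes. Its mean FPKM of 129.9 ± 27.2 (SD, n = 3) then ranked 617 among the 24419 symbols, against 7892 in sham. The direct comparison of 1 h with 10 min gave a log2 difference of 2.84 (SE 0.21, adjusted p = 0.000945, limma).

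Egr1 was still 17.3-fold above sham at 6 h, with a log2 fold change of 3.72 (adjusted p = 0.000853, limma), and its difference from 1 h was -0.75 (adjusted p = 0.17), with the mice of both times overlapping. Without the first 6-h mouse Egr1 was 11.5-fold above sham at 6 h, with a log2 fold change of 3.28 (adjusted p = 3.49e-05, limma), and its difference from 1 h was -1.19 (adjusted p = 0.00901). From 6 h to 24 h Egr1 fell by 2.20 on the log2 scale (SE 0.50, adjusted p = 0.0342, limma), where the median of all genes rose by 0.20. That fall lost its call without any 1 of the 6-h mice or the first or second 24-h mouse, with adjusted p from 0.0553 to 0.105. Against sham the log2 fold change was 1.52 at 24 h (adjusted p = 0.0251) and 1.65 at 72 h (adjusted p = 1.51e-06). The call at 24 h was lost without sham mouse 1, 2 or 3, with adjusted p of 0.0875, 0.0706 and 0.0708, and without the second 24-h mouse, with 0.0554. The direct comparison of 72 h with 24 h gave 0.12 on the log2 scale (95% interval -0.78 to 1.03, adjusted p = 0.818), and without the third 24-h mouse it was 0.58 (adjusted p = 0.0417).

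Egr2, a factor known from nerve myelination and from macrophage and lymphocyte activation, rose less than Egr1 by 1 h and went on to its highest level at 72 h. Its FPKM in mice 1, 2 and 3 was 0.127, 0.152 and 0.247 in sham and 0.701, 0.451 and 0.417 at 10 min. It was 1.73, 1.95 and 2.21 at 1 h and 4.79, 2.98 and 2.79 at 6 h. Each of these groups lay wholly above the one before it. The values were 1.87, 2.78 and 4.59 at 24 h, overlapping those at 1 h and 6 h, and 8.16, 7.63 and 5.66 at 72 h, above every other mouse.

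At 10 min the log2 fold change of Egr2 was 0.37, with a ratio of means of 2.98, and was not called (adjusted p = 0.141, limma). At 1 h it was 1.33 (SE 0.09, adjusted p = 0.00025) and the ratio of means was 11.2. The difference between 1 h and 10 min was 0.96 (adjusted p = 0.00847), and without the third 10-min mouse its adjusted p was 0.0503. The log2 fold change against sham was 1.92 at 6 h (adjusted p = 0.000678), 1.74 at 24 h (adjusted p = 0.00455) and 2.78 at 72 h (SE 0.13, adjusted p = 2.32e-07), where the ratio of means was 40.8. The step from 1 h to 6 h was 0.59 (adjusted p = 0.0518), and 0.70 without the third 6-h mouse (adjusted p = 0.0408). Between 24 h and 72 h Egr2 rose by 1.04 on the log2 scale (SE 0.25, adjusted p = 0.0129, limma), against a median of 0.13 over all genes, and without the second 72-h mouse the adjusted p was 0.0515.

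Egr3 is a close relative that is itself a known target of other early factors. Its mean FPKM was above that of Egr2 in sham, 0.316 against 0.175, and below it at 72 h, 3.11 against 7.15. The gene lies at chr14:70077203-70082614 of mm10 on the plus strand. Its FPKM in mice 1, 2 and 3 was 0.488, 0.107 and 0.352 in sham, 0.742, 0.476 and 0.836 at 10 min and 1.54, 1.65 and 2.46 at 1 h. The 10-min mice overlapped sham and the 1-h mice lay above both. At 6 h the values were 2.73, 2.05 and 1.78, at 24 h they were 1.18, 2.23 and 2.81, and the 72-h mice had 3.46, 3.25 and 2.64. In the order of the means from 72 h down to 1 h, neighbouring groups overlapped throughout. The log2 fold change of Egr3 against sham was 0.36 at 10 min (adjusted p = 0.267, limma), with a ratio of means of 2.17, and 1.13 at 1 h (SE 0.15, adjusted p = 0.0182). The call at 1 h was lost without sham mouse 2 or 3, with adjusted p of 0.0569 and 0.0787, and without the second 1-h mouse, with 0.0575. It was 1.28 at 6 h (adjusted p = 0.00199), 1.20 at 24 h (adjusted p = 0.00966) and 1.65 at 72 h (adjusted p = 5.89e-06). No step between neighbouring times was called for Egr3, and the step from 24 h to 72 h was 0.45 (adjusted p = 0.122), or 0.63 without the third 24-h mouse (adjusted p = 0.0219).

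Egr4, the member best known from neurons, was listed at 0 in all 3 sham mice and in all 3 mice at 1 h, the time at which Egr1 was highest. Its highest FPKM was 0.129, in the first 6-h mouse, and it was above 0 in all 3 mice at 72 h, with a mean of 0.0516. It stayed under the limit for testing in every mouse. The estimated depth against the first sham mouse was 1.243 to 1.319 at 72 h and 0.872 to 1.042 at 1 h. The part of depth in these values of Egr4 was not tested.

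Nr4a1, also known as Nur77, was the most abundant NR4A member and peaked together with Egr1. The gene spans chr15:101254269-101274795 of mm10, and the 4 CRE cores shown for it lie before a start site within that span. Its FPKM in mice 1, 2 and 3 was 4.02, 2.64 and 3.60 in sham and 7.03, 4.90 and 4.08 at 10 min. It was 34.3, 45.1 and 50.8 at 1 h and 22.2, 9.96 and 9.81 at 6 h. The 1-h mice lay above all other mice, and at 6 h mouse 1 was again the highest. The values were 7.55, 8.99 and 7.96 at 24 h and 6.41, 4.67 and 4.59 at 72 h, which still lay above every sham mouse.

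At 1 h Nr4a1 was 12.7-fold above sham, with a log2 fold change of 3.32 (SE 0.17, adjusted p = 7.28e-05, limma), the rank 7 rise among 13300 genes. At 10 min the log2 fold change had been 0.51 and was not called (adjusted p = 0.28), and the difference between 1 h and 10 min was 2.82 (SE 0.19, adjusted p = 0.00082). From 1 h to 6 h Nr4a1 fell by 1.65 on the log2 scale (SE 0.30, adjusted p = 0.0123), and the adjusted p was 0.053 without the second 1-h mouse. Of the 6 tested members this was the 1 called lower in that step, where 11.2% of 13321 genes were called lower. Against sham the log2 fold change was 1.68 at 6 h (adjusted p = 0.00786), 1.06 at 24 h (adjusted p = 0.0048) and 0.49 at 72 h (adjusted p = 0.0152).

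The value of Nr4a1 at 72 h has to be read against a shift of the whole table, since over all genes the log2 fold change had a median of 0.29 at that time. It became 0.23 (adjusted p = 0.201) under median-of-ratios scaling and -0.01 (adjusted p = 0.94) under quantile normalization. It also missed the threshold without the second sham mouse (adjusted p = 0.0507) and without the first 72-h mouse (adjusted p = 0.0519). Between 24 h and 72 h Nr4a1 fell by 0.57 (SE 0.14, adjusted p = 0.0152, limma), and without the second 72-h mouse the adjusted p was 0.0616 and without the third 0.069.

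Nr4a2, also known as Nurr1 and best known from dopamine neurons, had the smallest range of the tested members. Its gene spans chr2:57106830-57124003 of mm10. Its FPKM in mice 1, 2 and 3 was 0.378, 0.586 and 0.573 in sham, 0.651, 0.446 and 0.562 at 10 min and 1.31, 1.13 and 1.79 at 1 h. Only the 1-h mice lay above all sham mice among these. At 6 h the values were 1.23, 0.536 and 0.846, at 24 h they were 0.683, 0.721 and 0.909, and the 72-h mice had 1.29, 1.15 and 1.33, so that the mice at 6 h overlapped sham and those at 24 h and 72 h did not.

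The log2 fold change of Nr4a2 at 1 h was 0.67 (95% interval 0.40 to 0.93, adjusted p = 0.0587, limma), a ratio of means of 2.76 that just missed the threshold. It passed under quantile normalization (adjusted p = 0.0431) and with all 18 mice in one fit (adjusted p = 0.031). It was 0.29 at 6 h (adjusted p = 0.161) and 0.23 at 24 h (adjusted p = 0.13), and the value at 6 h was 0.43 without the second 6-h mouse (adjusted p = 0.0467). At 72 h it was 0.58 and called (adjusted p = 0.000476), but 0.05 (adjusted p = 0.633) under quantile normalization. The step from 24 h to 72 h was 0.35 (adjusted p = 0.0341, limma), 0.02 under quantile normalization (adjusted p = 0.861), and was lost without any 1 mouse other than the third 24-h mouse, with adjusted p from 0.0612 to 0.117.

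Nr4a3, also known as Nor1 and the largest NR4A gene at chr4:48045153-48086447 of mm10, peaked later than Nr4a1. Its FPKM in mice 1, 2 and 3 was 0.537, 0.432 and 1.13 in sham and 1.35, 0.693 and 0.415 at 10 min. It was 2.86, 3.39 and 3.44 at 1 h and 10.7, 3.98 and 3.67 at 6 h. The 1-h mice lay above sham without overlap and the 6-h mice above the 1-h mice, with the first 6-h mouse far above the rest. The values were 1.85, 1.88 and 2.51 at 24 h and 1.13, 0.727 and 0.981 at 72 h, and by 72 h they overlapped sham.

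The log2 fold change of Nr4a3 against sham was 0.09 at 10 min (adjusted p = 0.883, limma) and 1.34 at 1 h (SE 0.15, adjusted p = 0.0075). At 6 h it was 1.96 (SE 0.35, adjusted p = 0.00823), with a ratio of means of 8.77. Without the first 6-h mouse it was 1.53 (adjusted p = 0.00255), with a ratio of means of 5.47. At 24 h it was 0.87 (adjusted p = 0.0122). The call at 24 h was lost without the first or second sham mouse, with adjusted p of 0.0557 and 0.0505. At 72 h it was 0.21 (adjusted p = 0.245), or 0.39 without the third sham mouse (adjusted p = 0.0245) and -0.33 under quantile normalization (adjusted p = 0.0729).

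Between 10 min and 1 h Nr4a3 rose by 1.25 (SE 0.18, adjusted p = 0.0312, limma), a call that was lost without any 1 of the 5 mice other than the first 10-min mouse, with adjusted p from 0.0627 to 0.124. The step from 1 h to 6 h was 0.62 (95% interval -0.15 to 1.39, adjusted p = 0.213), although the mice of these times did not overlap. From 6 h to 24 h the difference was -1.08 (adjusted p = 0.0687), and from 24 h to 72 h Nr4a3 fell by 0.66 (SE 0.14, adjusted p = 0.00705).

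**Figure D3:**
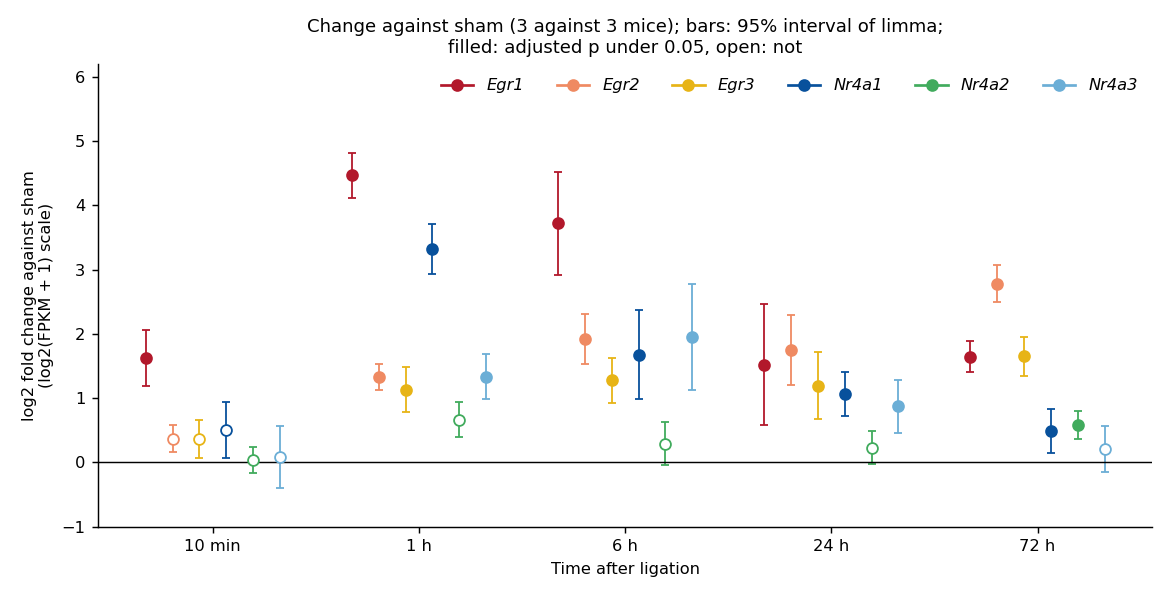
Log2 fold change of the 6 tested members against sham at each time after ligation, on the log2(FPKM + 1) scale, with the 95% interval of limma. Filled points have an adjusted p under 0.05. Egr1 is the only filled point at 10 min, Egr1 and Nr4a1 stand highest at 1 h and Egr2 stands highest at 72 h.

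Set side by side, the members differed in when they peaked. By group means Egr1, Nr4a1 and Nr4a2 were highest at 1 h, Nr4a3 at 6 h, and Egr2 and Egr3 at 72 h. For Egr1 the mice at 1 h and 6 h overlapped, for Nr4a2 those at 1 h and 72 h did, and for Egr3 those at 72 h and 6 h did, so that the place of the peak rests on the means in these genes. At 1 h Egr2 stood at 27.4% of its own highest mean FPKM. At 72 h Egr1 stood at 13.3% of its own and Nr4a1 at 12.0%.

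In the steps between neighbouring times, 4 of 6 members were called higher from 10 min to 1 h, Egr1, Egr2, Nr4a1 and Nr4a3, where 0.391% of 13298 genes were. The values for Egr3 and Nr4a2 in that step were 0.77 and 0.63, both with an adjusted p of 0.0781 (limma). From 6 h to 24 h 1 of 6 was called lower, Egr1, where 1.94% of 13328 genes were. From 24 h to 72 h Egr2 and Nr4a2 were called higher, where 29.7% of 13330 genes were, and Nr4a1 and Nr4a3 were called lower, where 13.5% were. These counts were small and single mice moved them. From 10 min to 1 h 2 members were called without the third 10-min mouse, and from 1 h to 6 h 0 without the second 1-h mouse and 2 without the first 6-h mouse or without the third. From 6 h to 24 h it was 0 without any 1 of the 6-h mice or the first or second 24-h mouse. In the last step 1 member was called without the second 72-h mouse, 2 without the third and 6 without the third 24-h mouse.

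The balance within each family moved as well. The FPKM of Egr2 divided by that of Egr1 was 0.0360 ± 0.0116 (SD, n = 3) in sham, 0.0154 ± 0.0027 at 1 h, 0.187 ± 0.0359 at 24 h and 0.411 ± 0.0478 at 72 h. The lowest ratio at 72 h, 0.357, was above the highest at 24 h, 0.222, and the highest ratio at 1 h, 0.0185, was below the lowest in sham, 0.0279. No exact permutation test of 3 mice against 3 can reach a two-sided p under 0.1, and the ratios are given as a description. The FPKM of Nr4a3 divided by that of Nr4a1 was 0.204 ± 0.096 in sham, 0.0754 ± 0.00776 at 1 h and 0.419 ± 0.0576 at 6 h, and the 3 ratios at 6 h lay between 0.374 and 0.484, so that the first 6-h mouse was high in both genes. The FPKM of all 7 members summed to 9.98 ± 0.838 in sham, 181.8 ± 33.2 at 1 h and 35.1 ± 4.21 at 72 h. Egr1 made up 71.3% of that sum at 1 h and 49.5% at 72 h, and Egr2 made up 1.09% and 20.3%.

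**Figure D4:**
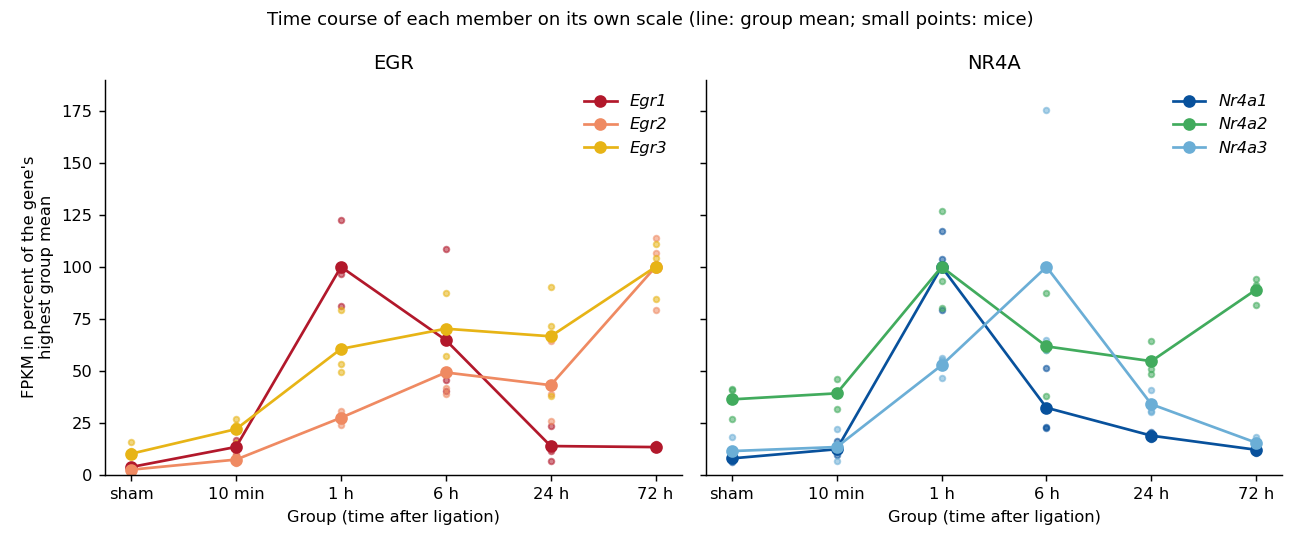
FPKM of the tested members in percent of each gene's highest group mean, by group, with EGR genes on the left and NR4A genes on the right. Lines join group means and small points are mice. Egr1 and Nr4a1 reach 100 at 1 h and are at 13.3 and 12.0 at 72 h, where Egr2 and Egr3 are at 100.

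The 30 other immediate early genes of a list of AP-1 factors, phosphatases, Kruppel-like factors and the like rose in the same window. At 10 min 5 of 30 were called higher and none lower, with a median log2 fold change of 0.44 against 0.02 for all genes. Fos, an AP-1 subunit, stood at 1.87 (adjusted p = 0.0357), Dusp1, a MAP kinase phosphatase, at 1.13 (adjusted p = 0.0142) and Junb, another AP-1 subunit, at 1.02 (adjusted p = 0.0403). At 1 h 20 of 30 were called higher, with a median of 1.27 against -0.02 for all genes, led by Fos at 5.45, Fosb at 5.18 and Atf3 at 4.28. The log2 fold change of Egr1 at 1 h, 4.47, lay below those of Fos and Fosb. At 6 h 28 of 30 were called higher with a median of 1.67, at 24 h 26 of 30 with 1.21 and at 72 h 24 of 30 with 0.81, and Klf4 was the 1 called lower, at 72 h. These medians stood beside -0.08, 0.13 and 0.29 for all genes. From 10 min to 72 h, in order of time, 0.248%, 0.669%, 11.6%, 26.2% and 53.1% of all genes tested were called higher. The share called lower at 72 h was 24.2%. The counts of the list have to be read against these shares, above all the last.

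**Figure D5:**
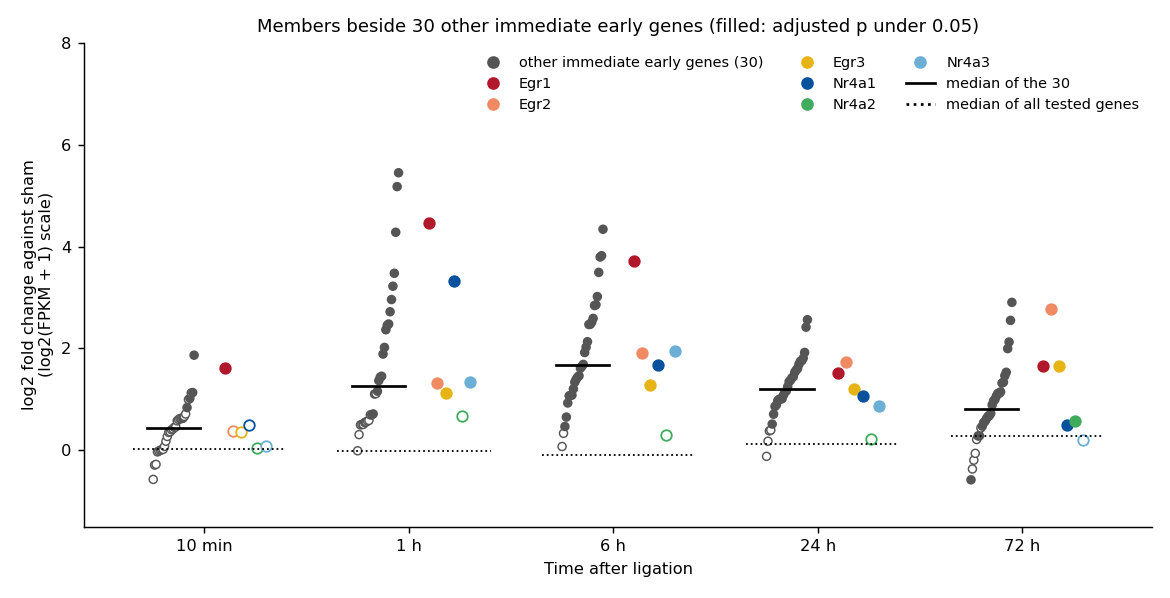
Log2 fold change against sham of the 30 other immediate early genes, in grey and sorted by value within a time, and of the 6 tested members, in colour, at each time. Filled points have an adjusted p under 0.05, solid bars are the median of the 30 and dotted lines the median of all genes tested. The grey median goes from 0.44 at 10 min to 1.67 at 6 h and 0.81 at 72 h.

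The list of 17 upstream factors and kinases, which carry signals to the CArG box and the cAMP response element, showed no call by limma at 10 min or 1 h, with medians of 0.07 and 0.03. At an unadjusted p under 0.05, 3 were higher at 10 min, and 1 was higher and 2 were lower at 1 h. Srf, the serum response factor itself and named with Creb1 for its role after the values were known, had a log2 fold change of 0.15 at 1 h (adjusted p = 0.437, limma), and Creb1 one of 0.07 (adjusted p = 0.854). Those values are of transcripts and say nothing of phosphorylation, by which these factors are known to be switched on. At 6 h 2 of 17 were called higher and 3 lower, where 11.6% of all genes tested were called higher and 16.8% lower. The kinase gene Rps6ka3 stood at 0.56 (adjusted p = 0.0178), and Mef2a, a myocyte enhancer factor of a family known to regulate Nr4a1 in lymphocytes, stood at -0.46 (adjusted p = 0.00952). At 24 h 4 were called higher and 1 lower, and at 72 h 8 were called higher and 3 lower, with medians of 0.15 and 0.14 against 0.13 and 0.29 for all genes. Of all genes tested, 26.2% and 53.1% were called higher at these times, and 11.4% and 24.2% lower. The largest at 72 h were Rps6ka1 at 1.66 and Mkl1, a coactivator of serum response factor, at 1.36.

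Of the 5 corepressors and dimer partners, limma called none at 10 min or 1 h, and at an unadjusted p under 0.05 it had 1 higher at 10 min and 0 at 1 h. Nab2, the EGR corepressor that EGR factors are themselves known to induce, had a log2 fold change of -0.14 at 1 h (adjusted p = 0.628, limma). It was 1.30 at 6 h (adjusted p = 0.00173), 1.23 at 24 h (adjusted p = 0.00929) and 1.59 at 72 h (adjusted p = 4.32e-07). Nab1 was called at 72 h, at 0.73 (adjusted p = 6.27e-05). Rxrg, a retinoid X receptor of muscle, was called lower at 6 h with -0.85, at 24 h with -0.96 and at 72 h with -1.38, and Rxra was called lower at 6 h and 24 h, at -0.44 and -0.32. In all, 1 of the 5 was called higher and 3 lower at 6 h. At 24 h it was 1 higher and 2 lower, and at 72 h 2 higher and 1 lower, with medians of -0.35, -0.05 and -0.07 against -0.08, 0.13 and 0.29 for all genes. Of all genes tested, 11.6%, 26.2% and 53.1% were called higher at 6 h, 24 h and 72 h, and 16.8%, 11.4% and 24.2% lower.

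The list of 11 known EGR target genes, Nab2 among them, had no call at 10 min, where 2 were higher and 1 lower at an unadjusted p under 0.05. It had 3 higher at 1 h, 6 higher at 6 h, 5 higher and 1 lower at 24 h, and 9 higher and 1 lower at 72 h. The shares of all genes tested that were called higher from 1 h on were 0.669%, 11.6%, 26.2% and 53.1%. Those called lower were 11.4% at 24 h and 24.2% at 72 h. The medians of the list from 10 min on were 0.10, 0.05, 1.08, 0.83 and 1.40, against 0.02, -0.02, -0.08, 0.13 and 0.29 for all genes. Thbs1, the gene of the matrix protein thrombospondin, rose by 1.95 on the log2 scale at 1 h (adjusted p = 0.000653, limma) and by 5.01 at 6 h (adjusted p = 0.000473). Gadd45b, a stress gene, was also called at 1 h, at 1.21 (adjusted p = 0.0487). The gene called lower at 24 h and 72 h was F3, which codes for tissue factor and stood at -0.43 and -1.09. These genes have many regulators beside the EGR factors.

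The 8 genes of muscle sugar and energy metabolism known as NR4A targets had no call by limma at 10 min or 1 h, and their median at 1 h was 0.02. At an unadjusted p under 0.05, 1 was higher at 10 min, and 1 was higher and 1 lower at 1 h. At 6 h 2 were called higher and 3 lower, at 24 h 1 higher and 5 lower, and at 72 h 8 of 8 were lower, with a median of -1.68 against 0.29 for all genes. Of all genes tested, 16.8% were called lower at 6 h, 11.4% at 24 h and 24.2% at 72 h. Those called higher were 11.6% at 6 h and 26.2% at 24 h. Ucp3, a mitochondrial carrier, stood at 1.99 at 6 h (adjusted p = 0.00333, limma), at 0.64 at 24 h (adjusted p = 0.0399) and at -0.98 at 72 h (adjusted p = 5.06e-05). Phka1, a subunit of phosphorylase kinase, was the other gene higher at 6 h, at 0.35 (adjusted p = 0.0417). Slc2a4, the insulin-responsive glucose transporter, fell by 0.51 at 6 h (adjusted p = 0.0205) and by 1.93 at 72 h (adjusted p = 1.17e-06). Markers of cardiomyocytes moved the same way by then, with 6 of 6 called lower at 72 h.

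At 1 h limma called no marker of cardiomyocytes, fibroblasts, endothelial cells, smooth muscle cells, macrophages or Schwann cells, among which 5 were higher and 3 lower at an unadjusted p under 0.05. Of 5 tested neutrophil markers 2 were called higher at 1 h, where 0.669% of all genes tested were. At an unadjusted p under 0.05 it was 5 of 5. At 10 min no tested marker of any type was called. At an unadjusted p under 0.05, 4 neutrophil markers were then higher, and of the other markers 9 were higher and 2 lower. Such a p was found for 14.7% of all genes tested at 10 min and 12.6% at 1 h. The neutrophil markers summed to 5.47 to 23.8 at 10 min and 2.32 to 4.99 in sham. The summed FPKM of the 6 cardiomyocyte markers was 49183 to 52173 in sham, 48632 to 50179 at 1 h and 18709 to 22994 at 72 h, so that the labelled tissue carried its defining genes in every group. That of the 6 macrophage and monocyte markers was 54.3 to 56.8 in sham, 52.1 to 54.7 at 1 h, 102.4 to 169.0 at 24 h and 538.3 to 618.8 at 72 h, and 6 of 6 were called higher at 72 h. The 6 fibroblast markers summed to 223.9 to 245.1 in sham and 2310.3 to 2994.5 at 72 h, with 6 of 6 called higher. By then 53.1% of all genes tested were called higher. Egr2 and Egr3 were highest at 72 h too, and the part of these cell types in their level was not tested. The 5 Schwann cell markers, of the cells in which Egr2 drives myelin genes, summed to 6.02 to 6.22 in sham and 6.58 to 7.75 at 72 h. Markers of T and NK cells summed to at most 1.90 in any mouse and none was tested, and no marker in the table was at 0 in all 3 mice of a group.

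The neutrophil markers differed most between mice. Their summed FPKM was 996.6, 115.7 and 374.7 in mice 1, 2 and 3 at 6 h and 209.4, 42.6 and 964.6 at 24 h, against 2.32 to 4.99 in sham. The first 6-h mouse had the highest sum of its group and also the highest FPKM of all 7 members. The third 24-h mouse had the highest sum of its group and the highest FPKM of Egr1, Egr2, Egr3, Egr4, Nr4a2 and Nr4a3. The 30 other immediate early genes summed to 2406, 1384 and 1203 in the same 6-h mice and to 813.0, 904.4 and 1478 in the 24-h mice. At 6 h the second mouse had the lowest neutrophil sum. All members other than Nr4a2 were higher in it than in the third mouse, as with Egr1 at 59.3 against 52.1. Nr4a2 was 0.536 in it and 0.846 in the third. At 24 h the second mouse had the lowest neutrophil sum, and all tested members were higher in it than in the first mouse. Egr4 was 0 in that second 24-h mouse and 0.0267 in the first. Without the first 6-h mouse 5 of 6 tested members were called higher than sham at 6 h. The neutrophil sums of the other 6-h mice, 115.7 and 374.7, were above those of sham as well. Whether neutrophils had a part in the differences between mice was not tested.

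Over the 18 mice, the members split by likeness of their time course. Pearson's r of log2(FPKM + 1) was 0.959 between Egr2 and Egr3 and 0.893 between Egr1 and Nr4a1, while it was 0.259 between Egr2 and Nr4a1. Within groups, after the mean of each group was taken off, r was 0.439 or more in every pair of members, with the highest at 0.87 between Nr4a1 and Nr4a3 and 0.865 between Egr1 and Egr2. These values describe mice that share groups and carry no test.

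Among all other genes tested, those most like Egr1 over the 18 mice were Zfp36, which codes for an mRNA decay factor, with r of 0.983, Fos with 0.979 and Apold1, an early gene of endothelium, with 0.962. Those most like Nr4a1 were Fosb with 0.954, Zfp36 with 0.931 and Fos with 0.926. For Nr4a3 they were Otud1, Csrnp1 and Sik1, with r of 0.955, 0.954 and 0.943. Egr2 was most like Dusp2, a phosphatase of immune cells, with 0.959, Fam46a with 0.956 and the histone gene H3f3b with 0.954, and Egr3 was most like Ptger4, a prostaglandin receptor, with 0.924, Ccnl1 with 0.918 and H3f3b with 0.913. For Nr4a2 the leading gene was Rn45s, the precursor of ribosomal RNA, with 0.887, followed by Jun with 0.849 and Gem with 0.832. Rn45s had a mean FPKM of 40.9 in sham, 120.0 at 1 h and 115.1 at 72 h, the times at which Nr4a2 was highest, and ribosomal RNA is a kind of RNA that poly(A) selection is meant to leave out. Its part in the level of Nr4a2 was not tested.

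Clock genes also moved between the groups, and since early factors are known to vary over the day in some tissues, their values are set beside the results. Arntl, the core clock activator, had an FPKM of 0.327 to 0.495 in sham, 2.67 to 4.56 at 10 min, 0.358 to 0.964 at 1 h and 9.20 to 10.8 at 72 h. Dbp, an output gene of the clock, had 86.5 to 91.5 in sham, 26.6 to 56.0 at 10 min, 24.7 to 92.3 at 1 h and 2.74 to 3.78 at 72 h. Nr1d1, a repressor of the clock, had 59.4 to 70.0 in sham, 69.2 to 96.4 at 10 min, 24.1 to 63.9 at 1 h and at most 28.9 at 72 h, so that its 10-min mice overlapped sham where those of Dbp lay below. At 6 h and 24 h Arntl had 1.36 to 2.43 and 0.604 to 2.25, and Dbp had 19.8 to 29.9 and 17.6 to 50.8. Nr1d1 had 35.1 to 52.0 and 26.2 to 49.5, so that all of them lay apart from sham at both times. The part of the hour of sampling in the change of Egr1 at 10 min, and in those of the members at any later time, was not tested.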

How the data were processed

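The deposited table holds FPKM for 24419 gene symbols in 18 mice. Per the labels and the methods of the study, the authors used cutadapt 1.18 for trimming and HISAT2 2.1.0 for mapping to mm10, and estimated FPKM with StringTie 1.3.4d, and the gene annotation is not given in the sources used here. The 3 columns of the 1 h group and that of the second mouse at 6 h have a letter that differs from the sample titles, and were matched to them since no other sample is left for them. The table has no read counts, so counting error is unknown and precision comes from the spread between mice.

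FPKM were used as deposited, as log2(FPKM + 1), for the 13333 genes with at least 1 FPKM in at least 1 mouse. A gene at 0 in all mice of a comparison was left out of it. Each comparison was fitted on its own 6 mice, and the F test on all 18, with limma 3.58.1 in R 4.3.3 (lmFit, then eBayes with a variance trend). Two-sided p-values were adjusted by Benjamini-Hochberg over the genes of a comparison, with a threshold of 0.05. The steps were tested on simulated data for 1 h against sham, with 200 genes raised 4-fold, of which 197 were called, beside 7 unchanged genes. The genes raised all had a higher level in sham than any member, so the simulation did not cover the level of the members. Values, ratios, r and figures came from Python 3.11.15 with numpy 2.4.6, pandas 2.3.3 and matplotlib 3.10.9, gene spans from GENCODE on mm10 and promoter windows from RefSeq.

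The members, the gene lists and the rule for named genes were chosen with earlier results of these data known. All 7 members are named. From a list, at most 4 called genes with the largest changes in a comparison are named, and for each tested member the 3 genes of highest r. 1 gene of a list, which counts in the results of its list, is not reported here by name. Alternatives were the thresholds of the study, which are an unadjusted p under 0.05 with a ratio of means over 2, no filter, a mean FPKM of 1 or more as the filter, a pseudocount of 0.1, median-of-ratios scaling, quantile normalization, no variance trend, a block for the replicate number, 1 fit over all 18 mice, and each mouse left out in turn.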

Additional observations from a re-analysis of the deposited data

Results flagged for a closer look

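The change against sham differed between neighbouring times in 10 cases by the direct limma test of the later against the earlier time. From 10 min to 1 h the log2 difference was 2.84 for Egr1, 0.96 for Egr2, 2.82 for Nr4a1 and 1.25 for Nr4a3. From 1 h to 6 h it was -1.65 for Nr4a1, and from 6 h to 24 h it was -2.20 for Egr1. From 24 h to 72 h it was 1.04 for Egr2 and 0.35 for Nr4a2, and -0.57 for Nr4a1 and -0.66 for Nr4a3. The rise of Nr4a2 was 0.02 under quantile normalization. Groups of 3 mice were not tested for single mice that stand apart.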

How the results depend on the processing

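Of 801 recomputed values for 54 gene results, 704 kept their direction and side of the threshold, 59 lost the call, 24 gained it and 14 changed sign. All 31 called results kept their direction except Nr4a1 at 72 h. The F test called 6 members under every alternative except the filter on the mean, where it called 5 and Nr4a2 was not tested. The causes of the changes below were not tested.

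At 10 min against sham, where 1 member was called, the thresholds of the study gave 3, and no filter, no variance trend, all 18 mice in one fit and the replicate block gave 0. At 72 h quantile normalization gave 3 in place of 5. From 10 min to 1 h the replicate block gave 2 in place of 4. From 1 h to 6 h, with 1, a pseudocount of 0.1, the filter on the mean, median-of-ratios scaling, quantile normalization and no variance trend gave 2, and all 18 mice in one fit gave 3. From 6 h to 24 h, with 1, the thresholds of the study and all 18 mice in one fit gave 2, and no filter and the replicate block gave 0. From 24 h to 72 h, with 4, the thresholds of the study and all 18 mice in one fit gave 2. With each mouse left out in turn the counts were 0 to 1 at 10 min, 4 to 5 at 1 h, 5 to 6 at 6 h, 3 to 5 at 24 h and 4 to 6 at 72 h. In the steps between times they were 2 to 4, 0 to 2, 0 to 1 and 1 to 6.

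Signs changed for small values. At 72 h quantile normalization gave -0.014 for Nr4a1 and -0.33 for Nr4a3. From 24 h to 72 h Egr1 was -0.026 under median-of-ratios scaling and -0.055 under quantile normalization. With each mouse left out, Nr4a2 at 10 min ran from -0.026 to 0.0896 and Nr4a3 from -0.11 to 0.26. From 6 h to 24 h Egr2 ran from -0.43 to 0.0527, Egr3 from -0.25 to 0.15 and Nr4a2 from -0.20 to 0.0706, and from 24 h to 72 h Egr1 ran from -0.29 to 0.58.

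Replicate numbers were taken as names only. The r of the deviations of same-numbered mice ran from -0.327 to 0.415, and in no comparison was it over 0.1 in all 3 pairs. From 10 min to 1 h, a comparison in which the block gave fewer calls, r was 0.196, 0.0905 and 0.148. Whether same-numbered mice shared an effect behind the calls lost under the block was not tested.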
